A study of Mus musculus with 6 samples.

Results

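Chemokines are small secreted proteins that bind G protein-coupled receptors on leukocytes and set the direction in which these cells move. CXC ligands with an ELR motif act mainly on neutrophils through CXCR2, interferon-induced CXC ligands on T cells through CXCR3, and CC ligands on monocytes, dendritic cells, lymphocytes or eosinophils according to the receptor they bind. In lymphatic vessels the best known member is CCL21, which guides CCR7-bearing dendritic cells into the vessel. The chemokine ligand genes described here were taken by symbol from the gene annotation of the data: all Ccl and Cxcl genes with a number, plus Cx3cl1, Xcl1, Pf4 and Ppbp. This gave 46 gene IDs with 41 symbols, of 31017 symbols in all. Of these 41 genes, 33 reached a mean of 10 CPM (UMIs, or unique molecular identifiers, of a gene in a sum of cells, scaled so that all genes together make 1000000) in at least 1 cell class. Ccl20, Ppbp, Ccl26 and Ccl28 had 13, 92, 3 and 6 UMIs in the barcodes kept and stayed under 10 CPM in every class. Ccl21b, Ccl21c, Ccl27 and Ccl27b had no UMI. They are near-identical copies of Ccl21a or Ccl27a, so reads that fit several copies may not have been counted, and values of Ccl19, Ccl21a and Ccl27a are uncertain for the same reason.

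The libraries are droplet single-cell 3′ RNA libraries of collecting lymphatic vessels, the valved vessels that pump lymph, dissected from mouse skin together with adjoining tissue. All mice were C57BL/6, received Evans Blue dye in the inguinal lymph node, and had their vessels digested with enzymes before red cells were lysed. Young mice were 6 weeks old, middle-aged mice 12 months and aged mice 18 months, with 1 library labelled male and 1 labelled female at each age, and the comparison asks how the ligands differ by cell class and age. The number of mice per library is not stated, so p-values measure only the spread between these libraries, and the aged mice alone came from the National Institute on Aging, so supplier and age cannot be told apart.

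The 6 libraries gave 998 to 7939 cells each, 23898 in all, with median depths of 2507 to 7484 UMIs per cell, and pairs of libraries shared 0 to 12 barcodes. Xist, expressed from the inactive X chromosome, and 4 Y-linked genes contradicted the labels of the middle-aged pair: the library labelled male had 1406 CPM of Xist and the one labelled female 0.255 CPM. Those names are kept below with the word labelled. The labelled middle-aged female library had the fewest cells and the deepest ones. Fibroblasts separated by library: 1 subcluster led by Dmkn and Sema3e held 80.0% and 78.2% of the fibroblasts of the labelled middle-aged female and aged male libraries and 0.109% to 1.32% in the others. Cells were named from marker genes, which gave 19 classes, and 12.5% of the cells stayed unnamed. Lymphatic endothelial sums held Prox1, the defining transcription factor of that lineage, at 885 to 2477 CPM. Lyve1, a marker of lymphatic capillaries, was at 836 CPM in young female, 65.2 CPM in labelled middle-aged male and 8.95 CPM in aged male. It was at 0 in the young male and labelled middle-aged female libraries. Smooth muscle sums held Myh11 at 2517 to 5256 CPM.

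Inflammatory ELR ligands are short-lived transcripts that are known targets of NF-kB. Cxcl1, Cxcl2 and Cxcl3 lie in 1 cluster on chromosome 5 with 105270, 165566 and 1247 UMIs in the barcodes kept. The 100 bases before their start sites are shown because each holds the same NF-kB-like motif, GGG then any 2 bases then TTTCC, searched on both strands of the 250 bases before each start. Cxcl12, a ligand of resting stroma and vessels, is shown beside them without a match. Sequences are RefSeq's, build GRCm38.p6, plus strand, 5′ to 3′, and capitals mark the motif matches, which do not overlap each other.
Cxcl1: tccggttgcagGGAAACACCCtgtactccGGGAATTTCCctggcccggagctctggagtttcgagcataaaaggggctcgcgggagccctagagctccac
Cxcl2: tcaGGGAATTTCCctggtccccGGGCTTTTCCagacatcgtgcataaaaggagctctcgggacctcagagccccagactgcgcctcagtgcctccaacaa
Cxcl3: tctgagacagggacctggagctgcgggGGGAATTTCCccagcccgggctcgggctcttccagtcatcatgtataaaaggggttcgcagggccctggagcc
Cxcl12: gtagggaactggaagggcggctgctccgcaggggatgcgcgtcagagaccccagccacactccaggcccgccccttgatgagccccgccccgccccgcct
They cover chr5:90891145-90891244 (Cxcl1), chr5:90903799-90903898 (Cxcl2), chr5:90786001-90786100 (Cxcl3) and chr6:117168435-117168534 (Cxcl12). Promoter windows matched 29 of the 41 genes, and 5 of these held the motif: Cxcl1, Cxcl2, Cxcl3, Ccl9 and Ccl20. Of all 32851 promoter windows of this length, 1.41% held it. A match describes letters only and is not evidence of binding.

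Each ligand was read first by where its transcripts lay. Macrophages and neutrophils carried the largest ligand output as a share of all UMIs, and lymphoid, dendritic, mast, endothelial and epithelial cells each had their own small set. Levels are means over libraries with at least 20 cells of the class, with the SD and the number of libraries as n, and are a description of clusters without a test. The 41 genes together took 39245 ± 7695 CPM (SD, n = 3) in neutrophils, 29754 ± 11795 CPM (n = 6) in macrophages and 15123 ± 315 CPM (n = 3) in NK or innate lymphoid cells. Fibroblasts had 7596 ± 7157 CPM (n = 6), blood endothelium 3136 ± 1050 CPM (n = 6), lymphatic endothelium 1561 ± 516 CPM (n = 5) and B cells 342 ± 191 CPM (n = 5). Of the 33 genes with a level, 6 were highest in macrophages, 5 each in neutrophils, fibroblasts and epithelium, and 3 in migratory dendritic cells. In 25 of the 33 the highest class lay above the free RNA of every library in it, measured in droplets with 100 UMIs or fewer.

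**Figure D1:**
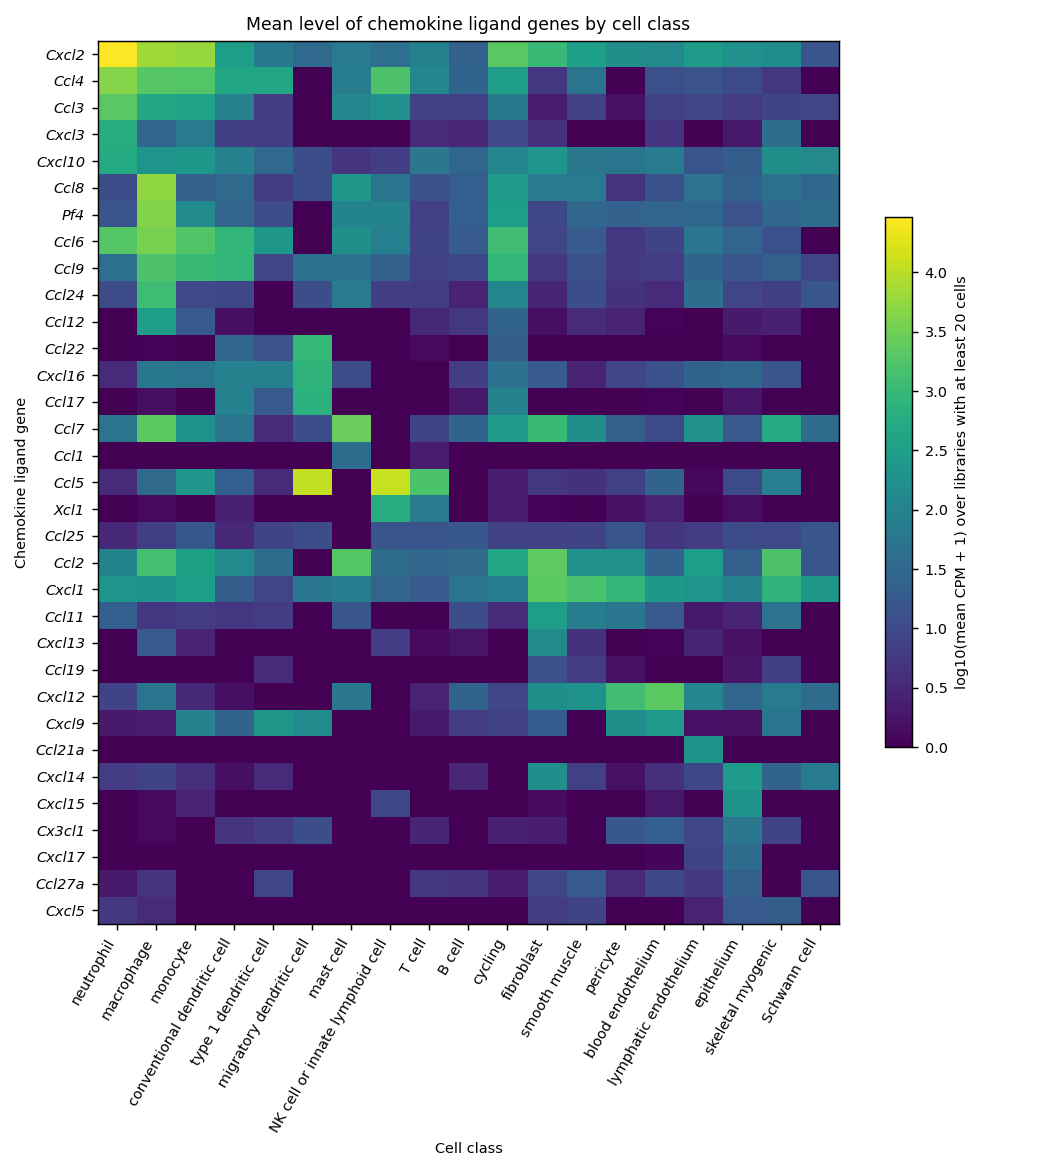
Mean level of the 33 ligand genes (rows) in 19 cell classes (columns) as log10 of mean CPM plus 1 over libraries with at least 20 cells. Most rows are bright in 1 or a few columns: Cxcl2 in neutrophils at 29101 CPM, Ccl8 in macrophages at 5368 CPM, and Ccl5 in NK and migratory dendritic cells.

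Among the ELR ligands, Cxcl2, which recruits neutrophils, was highest in neutrophils themselves at 29101 ± 5246 CPM (SD, n = 3), against 6775 ± 5145 CPM (n = 6) in macrophages and 5942 ± 5981 CPM (n = 5) in monocytes. Nearly every neutrophil of these 3 libraries carried it: 143 of 144 cells in labelled middle-aged female, 75 of 75 in aged male and 31 of 32 in aged female. Neutrophil means here and below thus hold no young library. Of the few neutrophils elsewhere, 4 of 7 carried Cxcl2 in young male, with 31 of 25771 UMIs. In young female 3 of 3 did (104 of 5072 UMIs), and in labelled middle-aged male 12 of 15 (113 of 48731 UMIs). Cxcl3 was also highest in neutrophils, with 614 ± 590 CPM, before monocytes at 71.0 ± 59.0 CPM and macrophages at 28.2 ± 29.2 CPM. Cxcl1 had a stromal pattern instead, with 2172 ± 1880 CPM (n = 6) in fibroblasts, 1544 ± 957 CPM (n = 5) in smooth muscle and 906 ± 827 CPM (n = 2) in pericytes, and these 3 did not differ beyond their spread. Cxcl15, a secreted epithelial ligand, was at 197 ± 112 CPM in epithelium (n = 3). Cxcl5 was low, with 19.9 CPM in the 1 skeletal myogenic sum and 3.39 to 31.0 CPM in epithelium. Epithelium was found in 3 libraries only: young female, labelled middle-aged male and aged female.

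CC ligands of CCR2, the receptor that draws monocytes from blood, fell into 2 patterns. Ccl8 and Ccl12 were macrophage genes, at 5368 ± 778 CPM and 300.1 ± 114 CPM (SD, n = 6). Cycling cells followed, with 263 ± 424 CPM of Ccl8 and 25.7 ± 41.4 CPM of Ccl12 (n = 3). Ccl2 and Ccl7 were shared between stroma, macrophages and mast cells. Ccl2 had 2242 ± 3031 CPM (n = 6) in fibroblasts, 1947 ± 260 CPM (n = 3) in mast cells, 1668 CPM in the 1 skeletal myogenic sum and 1360 ± 954 CPM (n = 6) in macrophages, an order within the spread between libraries. Ccl7 had 2739 ± 1173 CPM in mast cells, 2163 ± 1179 CPM in macrophages and 1035 ± 1079 CPM in fibroblasts. Mast cells, tissue granulocytes with heparin and histamine stores, carried Ccl7 in 39 of 50 cells in young male, 16 of 23 in young female and 16 of 20 in labelled middle-aged male. Their Ccl2 and Ccl7 levels lay above the free RNA in all 3 libraries. Ccl2, Ccl7, Ccl11, Ccl12 and Ccl8 are neighbours on chromosome 11, from 82035571 at the start of Ccl2 to 82116799 at the end of Ccl8, so adjacent genes had different highest classes.

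The other inflammatory CC ligands were myeloid or cytotoxic lymphocyte genes. Ccl6 had 3654 ± 906 CPM in macrophages (SD, n = 6), 1899 ± 781 CPM in neutrophils (n = 3) and 1758 ± 309 CPM in monocytes (n = 5). Ccl9 had 1636 ± 448 CPM in macrophages and 1039 ± 252 CPM in monocytes. Ccl3 and Ccl4 were highest in neutrophils, at 2127 ± 647 and 4452 ± 1717 CPM, before macrophages at 497 ± 621 and 2030 ± 2492 CPM. Ccl5, which attracts T cells and is stored in cytotoxic granules, had 12276 ± 740 CPM in NK or innate lymphoid cells (n = 3) and 11463 CPM in the only sum of migratory dendritic cells, in young female. T cells had 1557 ± 1886 CPM (n = 5). An unnamed lymphocyte subcluster with Gzma and Cd8b1 had 12948 CPM in labelled middle-aged male, 4224 CPM in aged male and 8613 CPM in aged female, and unnamed cells held a median of 50.8% of its UMIs per library. Xcl1, the ligand that draws cross-presenting dendritic cells, was also highest in NK or innate lymphoid cells, with 605 ± 278 CPM against 70.9 ± 87.9 CPM in T cells.

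Platelet factor 4 (Pf4), a CXC ligand that binds heparin and is known from platelets and tissue macrophages, had 4164 ± 739 CPM in macrophages (SD, n = 6) before cycling cells at 321 ± 308 CPM. Ccl24, an eosinophil attractant read by CCR3, had 1188 ± 392 CPM in macrophages. Ccl11, the other eosinophil ligand, was a fibroblast gene at 304 ± 116 CPM, with 75.9 ± 99.7 CPM in smooth muscle. Its UMIs lay in fibroblasts by a median of 97.4% per library. Cxcl13, the B cell follicle ligand, had 135 ± 66.9 CPM in fibroblasts and 18.4 ± 18.0 CPM in macrophages. Ccl19, a CCR7 ligand of lymph node stroma, reached 11.6 ± 10.2 CPM in fibroblasts. Cxcl14 was split between epithelium at 297 ± 180 CPM (n = 3) and fibroblasts at 153 ± 83.8 CPM (n = 6).

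Cxcl12, which retains CXCR4-bearing cells in bone marrow and around vessels, had its highest levels in vascular cells: 2227 ± 979 CPM in blood endothelium (SD, n = 6), 1265 ± 473 CPM in pericytes (n = 2) and 197 ± 70.3 CPM in smooth muscle (n = 5). Fibroblasts had 166 ± 68.7 CPM (n = 6) but held a median of 47.1% of Cxcl12 UMIs per library, beside 32.3% in blood endothelium. In lymphatic endothelium it had 73.1 and 164 CPM in the young male and young female libraries, 78.2 and 148 CPM in the labelled middle-aged male and female libraries, and 60.1 CPM in aged male. In the same 5 libraries blood endothelium had 986, 2397, 2513, 1842 and 3885 CPM of Cxcl12, so blood endothelium was higher in each. Cxcl9, an interferon-induced T cell ligand, also had its highest mean in blood endothelium at 258 ± 96.3 CPM, close to type 1 dendritic cells at 233 ± 169 CPM (n = 3). Fibroblasts held a median of 50.9% of Cxcl9 UMIs per library, beside 31.2% in blood endothelium. Lymphatic endothelium had 3 UMIs of Cxcl9 (3.32 CPM) in labelled middle-aged female and 0 in the other 4 libraries, where a count of 0 allows up to 3.83 to 39.1 CPM. Cxcl10, its neighbour on chromosome 5, had a mean of at least 10 CPM in 17 classes, against 8 for Cxcl9. Its levels were 217 ± 80.9 CPM in fibroblasts, 239 ± 315 CPM in monocytes and 563 ± 903 CPM in neutrophils. Cx3cl1, the membrane-bound fractalkine, had 42.3 to 67.5 CPM in epithelium and 8.45 to 43.0 CPM in blood endothelium. Cxcl17 and Ccl27a, both known from mucosa and skin, had 37.0 ± 6.20 and 22.4 ± 4.01 CPM in epithelium, and Ccl27a had 17.5 ± 4.51 CPM in smooth muscle.

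Ccl17 and Ccl22, the CCR4 ligands, had their highest level in migratory dendritic cells, the state known for carrying antigen to lymph nodes. Migratory dendritic cells, named from Ccr7 and related markers, numbered 37 in young female and 0 to 8 in the other libraries. In young female they had 718 CPM of Ccl17 (66 UMIs) and 991 CPM of Ccl22 (91 UMIs). Per library, migratory dendritic cells held a median of 15.4% of the Ccl17 UMIs and unnamed cells 32.0%. Conventional dendritic cells had 93.9 ± 84.1 and 28.2 ± 25.4 CPM of these genes (SD, n = 4). Cxcl16, a membrane-bound ligand of CXCR6, was at 784 CPM in migratory dendritic cells and 95.3 ± 7.90 CPM in conventional ones. Across the 19 class means of log2(CPM + 1), Ccl17 and Ccl22 were the 2 genes most alike, with a Pearson r of 0.976. Ccl4 and Ccl6 followed with 0.890, Ccl8 and Ccl24 with 0.866, Ccl3 and Ccl4 with 0.862 and Ccl2 and Ccl7 with 0.811. The class means share libraries and free RNA, so these are descriptions. Ccl1 (42 UMIs in all) reached 36.8 ± 44.6 CPM in mast cells, from 0 to 86.4 CPM, and Ccl25 was at 15.8 ± 24.3 CPM in B cells, within the spread of other classes.

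The 6 libraries were then set side by side. In macrophages the ligands ranged from steady to variable. Of the 20 genes with at least 3 UMIs in each library, 7 differed by under 3-fold between the lowest and the highest library and 7 by at least 10-fold. The others lay between, such as Ccl12 at 3.55-fold and Cxcl2 at 7.33-fold. No share over all macrophage genes was computed beside these counts. Ccl8 was steady, with 5868 and 5406 CPM in the young male and young female libraries, 6532 and 4500 CPM in the labelled middle-aged male and female libraries, and 5352 and 4552 CPM in aged male and female. Pf4 ran from 3334 to 5206 CPM, Ccl6 from 2985 to 5448 CPM, Ccl9 from 1066 to 2188 CPM and Ccl24 from 819 to 1945 CPM. These are genes known from resident tissue macrophages.

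The variable macrophage ligands did not all peak in the same library. Ccl4, Ccl3 and Cxcl10, known as products of acute activation, were highest in the labelled middle-aged female library, as was Cxcl2 with a 7.33-fold range. Ccl4, in the same order of libraries as Ccl8, had 395, 338, 2388, 6775, 1944 and 337 CPM, a 20.1-fold range. Cxcl2 had 3056, 1940, 11048, 14221, 8062 and 2326 CPM. Cxcl10 had 59.4, 30.1, 250, 666, 166 and 29.8 CPM, and Ccl3 had 201, 188, 396, 1748, 328 and 122 CPM. In each of these 4 genes both middle-aged libraries and the aged male library lay above both young libraries, and the aged female library lay near the young ones. The other 4 ligands with a range of at least 10-fold were low and had other orders. The lowest count in a library was 4 UMIs for Cxcl3, 4 for Cxcl14, 3 for Cxcl13 and 12 for Ccl5. Cxcl3 ran from 1.71 CPM in young male to 79.4 CPM in aged female, and Cxcl14 from 1.71 to 26.5 CPM in the same libraries. Cxcl13 was highest in aged male at 46.1 CPM and Ccl5 in young female at 79.3 CPM, where free RNA held 135 CPM of Ccl5. Cxcl2 UMIs lay unevenly over macrophage subclusters. In labelled middle-aged male the Il10 Cd83 cells held 25160 of 33645, and in aged female they held 1035 and the Arg1 Spp1 cells 1526 of 3513. The Il10 Cd83 subcluster counted 68 of 1179 macrophages in young male, 198 of 825 in young female, 656 of 1506 in labelled middle-aged male, 75 of 87 in labelled middle-aged female, 136 of 542 in aged male and 26 of 307 in aged female. Within it, Ccl4 had 855 and 1121 CPM in the young male and young female libraries, 4109 and 7527 CPM in the labelled middle-aged male and female libraries, and 6915 and 2698 CPM in aged male and female.

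No ligand passed the test in macrophages. With edgeR's quasi-likelihood test and Benjamini-Hochberg adjustment over all genes, 0 of 22 ligands tested were called in aged against young, in middle-aged against young and in aged against middle-aged. The share of all 9298 genes called was 0% in each contrast. At an unadjusted p under 0.05 there were 3, 10 and 8 ligands, beside 4.21%, 11.9% and 8.98% of all genes. Middle-aged against young, Ccl4 had a log2 difference of 3.94 ± 0.85 (SE, edgeR adjusted p = 0.326), Cxcl2 2.61 ± 0.60, Cxcl10 3.63 ± 0.83 and Ccl3 2.76 ± 0.72. The median over the 22 ligands was 1.07, beside -0.03 over all genes, and 21 of 22 were above 0. DESeq2 called 5 of them in that contrast (Ccl2, Ccl4, Cxcl1, Cxcl2 and Cxcl10, all higher), beside 7.23% of the 2088 genes it gave an adjusted p, 2 in aged against middle-aged (Ccl2 and Cxcl1, both lower), beside 2.71% of 3169, and 0 in aged against young. Of 20 NF-kB inducers and feedback genes tested, edgeR called 0 in each macrophage contrast. Their summed level was 2452 to 2588 CPM in young, 4232 to 5239 CPM in middle-aged and 2333 to 2667 CPM in aged macrophages. The list of dissociation and immediate early genes had 22743 to 23273, 25634 to 29512 and 16907 to 26540 CPM. Their part in the ligand differences was not tested.

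**Figure D2:**
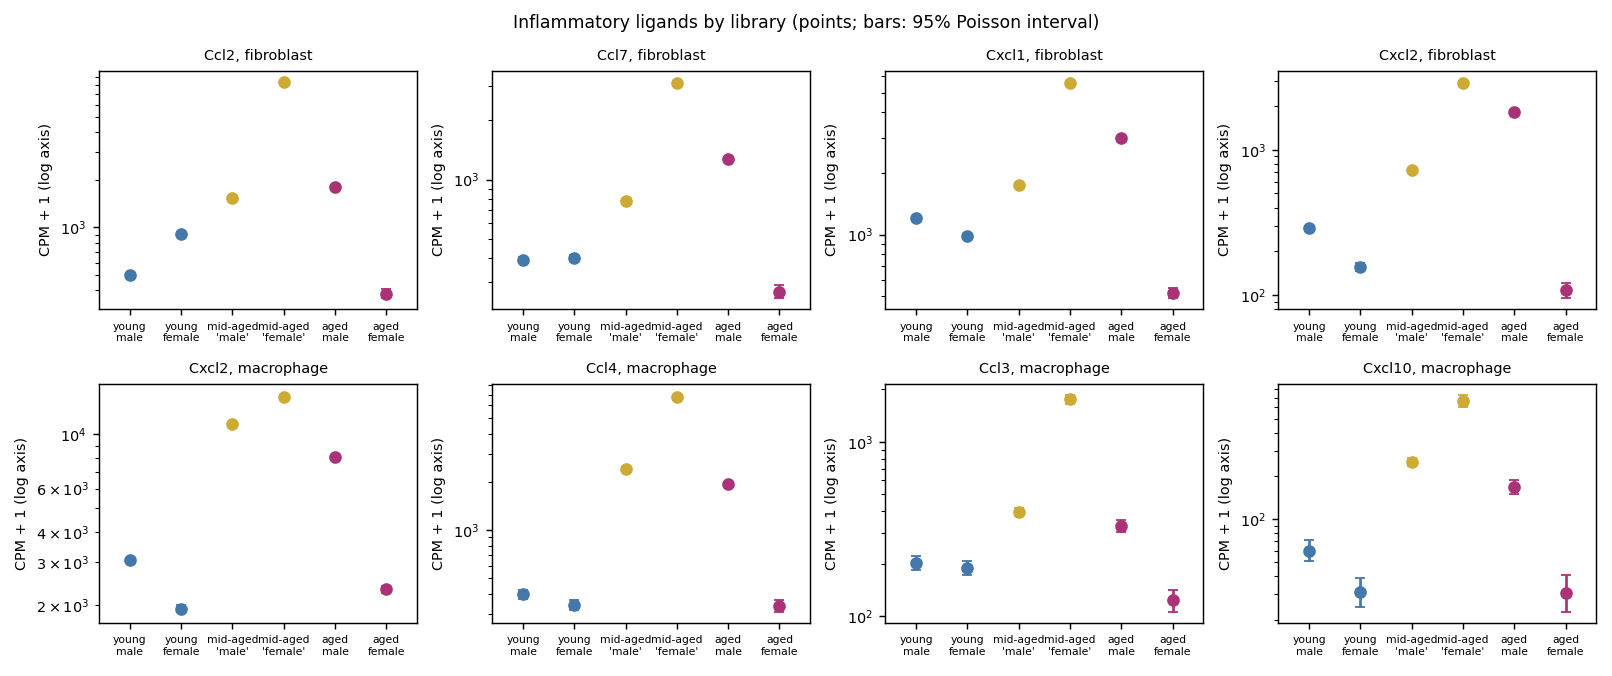
Level of 4 ligands in fibroblasts and 4 in macrophages in each library, as CPM plus 1 on a log axis. Points are libraries, coloured by age, with 95% Poisson intervals for counting error, and quoted sexes mark labels that Xist contradicts. The labelled middle-aged female library is the highest in each panel, as for Ccl2 in fibroblasts at 8320 CPM. Young male, young female and aged female lie low, there at 497, 910 and 379 CPM.

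In fibroblasts the labelled middle-aged female library was also the highest and aged female the lowest for Ccl2, Ccl7, Cxcl1 and Cxcl2, the ligands that recruit monocytes and neutrophils. Ccl2 had 497 and 910 CPM in the young male and young female libraries, 1536 and 8320 CPM in the labelled middle-aged male and female libraries, and 1809 and 379 CPM in aged male and female. The 2 aged libraries therefore lay on either side of the young ones. Cxcl1 had 1212, 980, 1745, 5600, 2980 and 513 CPM in the same order. Ccl7 ran from 268 CPM in aged female to 3105 CPM in labelled middle-aged female, and Cxcl2 from 106 to 2908 CPM in the same libraries. Ccl2 was found in 407 of 455 fibroblasts of the labelled middle-aged female library and in 124 of 412 in aged female, and the deeper cells of the former raise such shares. Free RNA held 75.0 to 2325 CPM of Ccl2 and 245 to 2406 CPM of Cxcl2. Fibroblast Ccl2 lay above the free RNA of its library in 5 of 6 libraries and Cxcl1 in 6 of 6, but Cxcl2 in 1 of 6, the labelled middle-aged female library. In aged male, fibroblasts had 1826 CPM of Cxcl2, free RNA 1989 CPM and T and NK lymphocytes 486 CPM, and the share of free RNA in the fibroblast value was not tested.

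Different fibroblast subclusters held most cells in different libraries. Within the Dmkn Sema3e fibroblasts, Ccl2 had 2537 CPM in labelled middle-aged male, 9066 CPM in labelled middle-aged female and 2043 CPM in aged male. Within the Ptx3 Tac1 fibroblasts it had 2028 CPM in young female, 2410 CPM in labelled middle-aged male, 2838 CPM in aged male and 1320 CPM in aged female. The Akr1c18 Smpd3 fibroblasts had 173 to 366 CPM. Cxcl1 was low there too, at 294 to 534 CPM. Several other ligands ranged less over the 6 libraries than Ccl2 and Cxcl1. Ccl11 ran from 202 to 530 CPM, Cxcl13 from 86.1 to 266 CPM and Ccl8 from 46.2 to 91.5 CPM. Cxcl10, named above as a product of acute activation, ran from 101.5 to 347 CPM, and Cxcl14 from 80.2 to 302 CPM. Cxcl12 in fibroblasts was lowest in young male at 59.9 CPM and 130 to 251 CPM elsewhere.

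**Figure D3:**
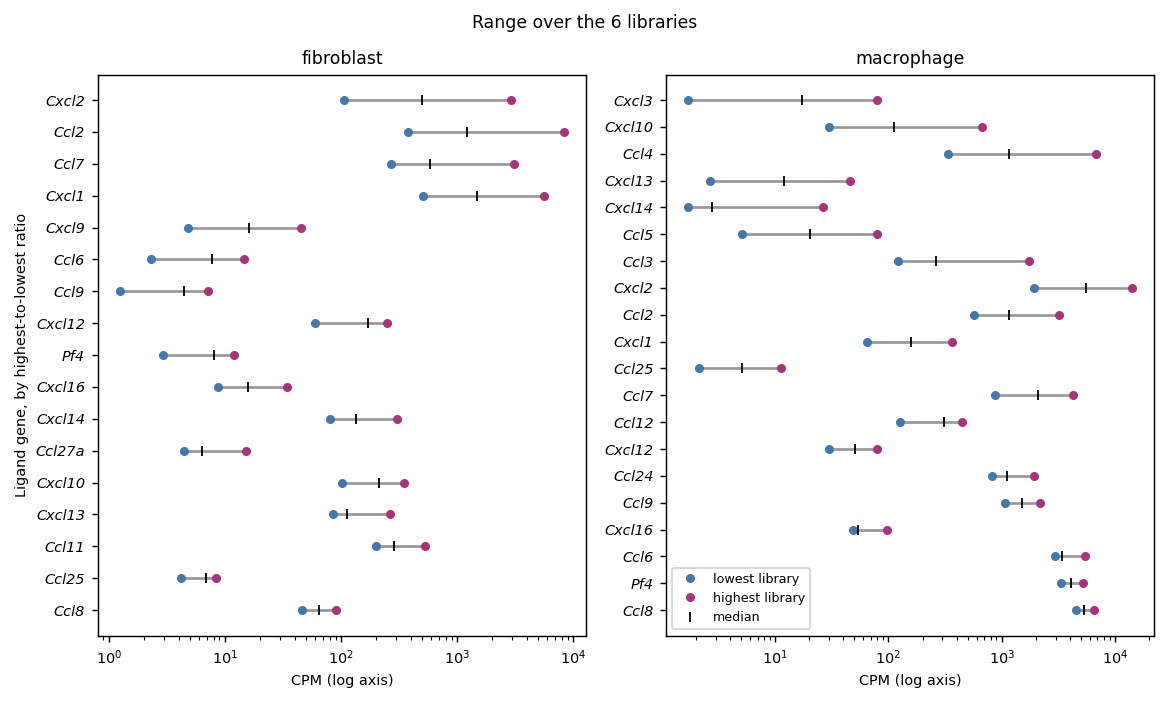
Lowest (blue), median (tick) and highest (purple) library level of each ligand with at least 3 UMIs in all 6 libraries, in CPM on a log axis, for fibroblasts and macrophages. Genes are ordered by the highest-to-lowest ratio, from 1.98 for Ccl8 to 27.4 for Cxcl2 in fibroblasts and from 1.45 for Ccl8 to 46.5 for Cxcl3 in macrophages.

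In fibroblasts 0 of 24 ligands tested passed edgeR's test in aged against young, in middle-aged against young and in aged against middle-aged, and 0% of 11906 genes were called in each. DESeq2 called 0 ligands in each, and at an unadjusted p under 0.05 there were 2, 5 and 3, beside 4.47%, 7.99% and 3.51% of all genes. Median log2 differences of the 24 ligands were -0.58, 0.12 and -0.79, beside -0.01, -0.03 and 0.00 over all genes. Macrophage markers in fibroblasts summed to 165 and 1016 CPM in the young libraries and to 188 to 344 CPM in the other libraries, and Adgre1, a defining macrophage marker, was under 1.00 CPM in each. In blood endothelium 0 of 8 ligands passed in any contrast. All genes were called at 0.138% aged against young, 0.0197% middle-aged against young and 0% aged against middle-aged. There 3, 2 and 3 ligands had an unadjusted p under 0.05, beside 8.88%, 9.91% and 8.68% of all genes, and DESeq2 called 0. Cxcl12 in blood endothelium was highest in aged male at 3885 CPM and lowest in young male at 986 CPM, with aged female at 1737 CPM between them.

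Lymphatic endothelium was rare, with 24 cells in each young library, 21 and 91 in the labelled middle-aged male and female libraries, 95 in aged male and 4 in aged female, which was left out of the fit. The aged side is thus 1 library, assumed to vary like the others. It is male, while the young side has 1 male and 1 female library. Sex and age are therefore mixed in aged against young, here and in smooth muscle below. Y-linked genes were at 257 CPM in aged male, 265 CPM in labelled middle-aged female and 172 CPM in young male. Of 10 ligands tested, 4 passed edgeR's test in aged against young, 3 higher and 1 lower, beside 7.55% of all 3153 genes called. The median over the 10 was -1.81 against -0.01 over all genes. Ccl2 had 187 and 52.3 CPM in the young male and young female libraries, 52.2 and 607 CPM in the labelled middle-aged male and female libraries and 614 CPM in aged male. The aged library and 1 middle-aged library were high and the other 3 low. Aged against young it rose by a log2 of 2.37 ± 0.64 (SE, edgeR adjusted p = 0.0232). Ccl7 had 106, 74.7, 91.3, 187 and 435 CPM in the same order and rose by 2.28 ± 0.45 (edgeR adjusted p = 0.00265). Cxcl2 had 146, 187, 169, 234 and 676 CPM and rose by 2.03 ± 0.40 (edgeR adjusted p = 0.00231).

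These 3 ligands lay below the free RNA level in all 5 libraries: free RNA held 484 to 2325 CPM of Ccl2, 447 to 1013 CPM of Ccl7 and 640.0 to 2406 CPM of Cxcl2. T and NK lymphocytes, not known as a source of Ccl2, had 53.4, 99.5, 17.4, 17.9 and 15.5 CPM of it in the same 5 libraries, above lymphatic endothelium in young female and below it in the others. For Cxcl2 the lymphocytes of aged male had 486 CPM beside 676 CPM in lymphatic endothelium. Ccl2 was carried by 56 of 95 lymphatic endothelial cells in aged male and 52 of 91 in labelled middle-aged female, against 7 and 4 of 24 in young male and female. For Cxcl2, 1 aged male cell held 43.1% of the UMIs. Without the cell with the most UMIs of the gene in each library, Ccl2, Ccl7 and Cxcl2 stood at log2 3.02, 2.46 and 3.29. That cell held 11 of 23 and 4 of 7 Ccl2 UMIs in young male and female, against 73 of 480 in aged male. For Cxcl2 it held 13 of 18 and 20 of 25, against 228 of 529. For Ccl7 it held 4 of 13 and 6 of 10, against 102 of 340. Removing a larger share from the young side raises the difference by itself. The removal therefore cannot show whether these differences rest on single cells. With DESeq2, which called 2.09% of 1625 genes there, Cxcl2 was called (adjusted p = 0.0440) and Ccl2 and Ccl7 were not (adjusted p = 0.638 and 0.0866). Without the young male library none of the 3 was called (edgeR adjusted p = 0.171, 0.0979 and 0.137), nor without young female (0.335, 0.132 and 0.0546). Macrophage markers in these sums were at 2591 to 2973 CPM in young and 1481 CPM in aged male, and Adgre1 was at 0 in each. Their part in the result was not tested.

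Ccl21a, the CCR7 ligand known from lymphatic vessels, was found in few of these cells. It had 0 CPM in young male, 911 CPM in young female, 26.1 and 0 CPM in the labelled middle-aged male and female libraries and 30.7 CPM in aged male. All 122 UMIs of young female lay in 1 of 24 cells, and the 2 UMIs of labelled middle-aged male and the 24 UMIs of aged male also lay in 1 cell each. The young female cell held 280 UMIs of 9 lymphatic endothelial markers among 11088 UMIs. A count of 0 allows up to 24.4 CPM in young male and 3.32 CPM in labelled middle-aged female, for counting error only. In edgeR Ccl21a was called lower in aged against young (log2 -3.83 ± 1.04, adjusted p = 0.0232) and in middle-aged against young (-7.39 ± 1.28, adjusted p = 9.2e-04), where it was the only 1 of 10 ligands called, beside 1.90% of all genes. These calls rest on that 1 cell. Without the top cell of each library the gene fell under the filter on low counts, and without the young female library the sign turned to 6.89 and 3.41. In aged against middle-aged 0 of 10 ligands and 0% of genes were called, with 4 ligands and 7.99% of genes at an unadjusted p under 0.05 and 0 ligands by DESeq2.

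Other genes of the pathway were read from lists. In lymphatic endothelium, aged against young, 2 of 2 tested atypical receptors, which scavenge ligands, fell. Ackr3, a scavenger of CXCL12, had 439 and 224 CPM in young and 78.0 CPM in aged male, and fell (log2 -2.08 ± 0.49, edgeR adjusted p = 0.00895). Ackr4, a scavenger of CCR7 ligands, had 365 and 217 CPM in young and 58.8 CPM in aged male, and fell (log2 -2.30 ± 0.49, edgeR adjusted p = 0.0046). Of 8 tested NF-kB genes 2 rose, Csf3 (log2 5.19, edgeR adjusted p = 1.0e-04) and Icam1 (1.47, edgeR adjusted p = 0.0302), with a list median of 0.77. Of 22 tested dissociation and immediate early genes 4 rose and 4 fell, with a median of -0.60. Heat shock genes Hspa1b and Hspa1a rose by 3.06 and 3.42, while Btg2 fell (log2 -2.56). Interferon response genes, with 2 to 19 of 19 tested per class, had 0 calls by edgeR in 9 classes and 3 contrasts. Typical chemokine receptors, with 1 to 7 of 18 tested in 6 classes, had 0 calls there, and 0 were tested in blood endothelium, lymphatic endothelium and smooth muscle.

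**Figure D4:**
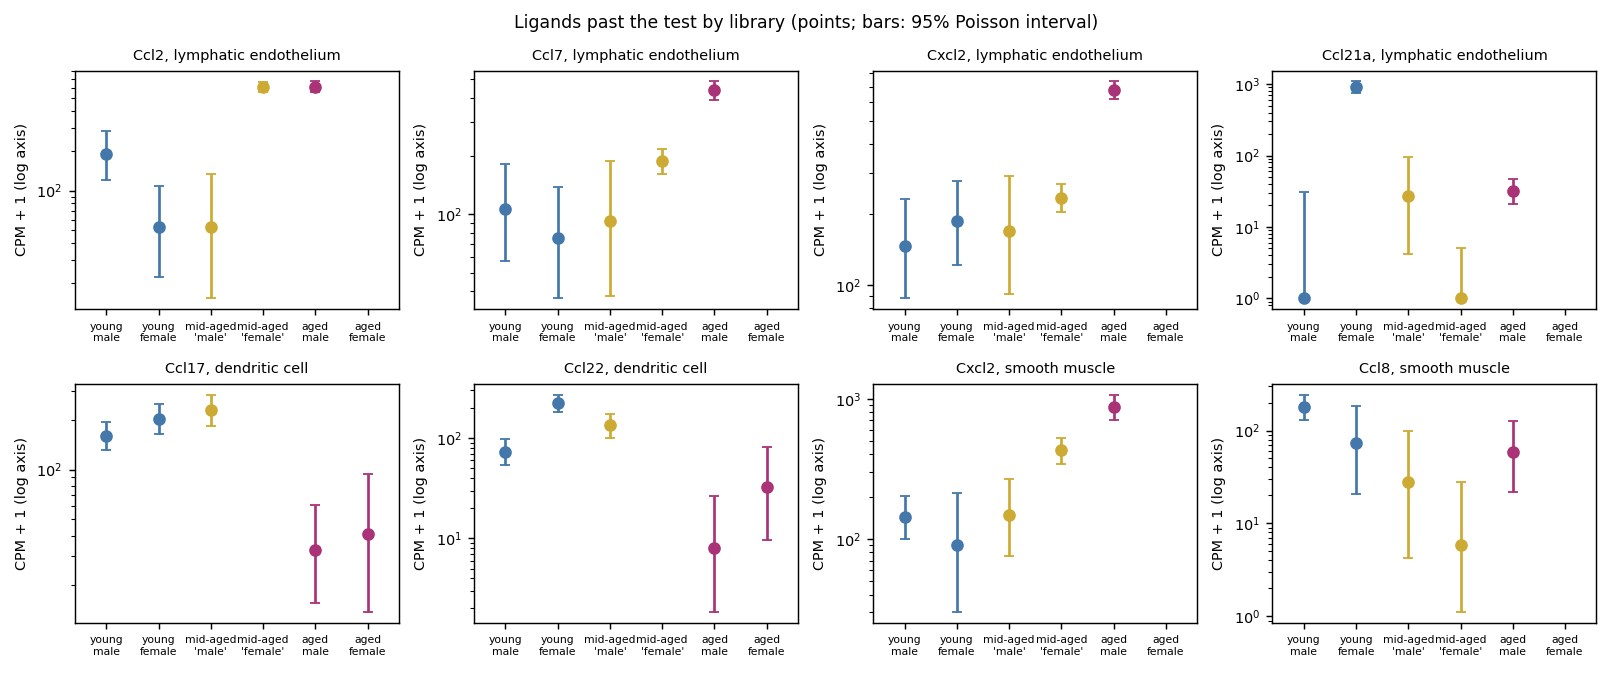
Level of each ligand called in any age contrast, per library with at least 20 cells of the class, as CPM plus 1 on a log axis with 95% Poisson intervals. Ccl21a stands at 911 CPM in young female only, from 1 cell, while Ccl17 and Ccl22 lie lower in both aged libraries than in the young and middle-aged ones.

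In dendritic cells the aged libraries lay below the young ones for both CCR4 ligands. Of 17 ligands tested, 2 passed edgeR's test in aged against young, both lower, beside 0.118% of all 5088 genes called. The median over the 17 was -0.65 against 0.02 over all genes. Ccl17 had 159 and 202 CPM in the young male and young female libraries, 229 CPM in labelled middle-aged male and 31.8 and 39.6 CPM in aged male and female. It fell in aged against young (log2 -2.44 ± 0.44, edgeR adjusted p = 0.0161) and in aged against middle-aged (log2 -2.74 ± 0.48, edgeR adjusted p = 0.0443), where it was the 1 ligand called of 17, beside 0.0197% of genes. Ccl22 had 71.7 and 222 CPM in young, 133 CPM in labelled middle-aged male and 7.07 and 31.7 CPM in aged male and female, and fell in aged against young (log2 -3.28 ± 0.65, edgeR adjusted p = 0.0313). Middle-aged against young, 0 of 17 ligands passed, beside 0.0786% of genes, with 2 ligands and 5.84% of genes at an unadjusted p under 0.05 and 0 ligands by DESeq2. The labelled middle-aged female library had 9 dendritic cells and was left out.

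The aged values rest on few UMIs and on a class of changing make-up. Aged male and female had 63 and 31 dendritic cells, with 9 and 5 UMIs of Ccl17 and 2 and 4 of Ccl22. Migratory dendritic cells made up 2.77% and 24.8% of the class in young male and female, 1.27% in labelled middle-aged male and 3.17% and 9.68% in aged male and female. An unnamed subcluster led by Tnip3 and Klrb1b made up 43.7% in labelled middle-aged male and 46.0% in aged male, where it held 62 UMIs and 3 UMIs of Ccl17. Within conventional dendritic cells Ccl17 had 162 and 31.3 CPM in the young male and young female libraries, 171 CPM in labelled middle-aged male and 11.6 CPM in aged female, so young female lay near aged female there. DESeq2 called neither gene (aged against young, adjusted p = 0.161 and 0.220), and without the top cell of each library Ccl17 and Ccl22 stood at -2.28 and -4.34 (edgeR adjusted p = 0.0743 and 0.209). For Ccl22 that cell held 2 of 2 and 2 of 4 UMIs in aged male and female, against 6 of 45 and 31 of 102 in young male and female. Removing a larger share from the aged side enlarges the fall by itself, so the removal cannot show whether the Ccl22 difference rests on single cells. Aged against young, Ccl17 was not called without labelled middle-aged male, aged male or aged female (edgeR adjusted p = 0.0925, 0.0703 and 0.0958), and Ccl22 neither without these (0.463, 0.110 and 0.0958) nor without young female (0.0711). Aged against middle-aged, Ccl17 was not called without aged female (0.168).

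In smooth muscle, the contractile layer of the vessel wall, 1 of 10 ligands passed edgeR's test in aged against young, beside 0.456% of 2632 genes, and 1 in middle-aged against young, beside 2.85%. Cxcl2 had 143 and 89.9 CPM in the young male and young female libraries, 148 and 427 CPM in the labelled middle-aged male and female libraries and 868 CPM in aged male, the only aged sum. It rose by a log2 of 2.65 ± 0.54 aged against young (edgeR adjusted p = 0.00803). Of the 91 UMIs in aged male, 62 lay in 1 of 33 cells, which carried 9 fibroblast markers and 4 smooth muscle markers. Without the top cell of each library the difference was 1.50 (edgeR adjusted p = 0.424). Ccl8 had 178 and 71.9 CPM in young, 26.9 and 4.80 CPM in middle-aged and 57.2 CPM in aged smooth muscle, and fell in middle-aged against young (log2 -3.66 ± 0.82, edgeR adjusted p = 0.00778). Of the 41 UMIs in young male, 33 lay in 1 cell, which carried 66 UMIs of 10 macrophage markers. Without young male, Cxcl2 had an edgeR adjusted p of 0.824, and without labelled middle-aged female Ccl8 had 0.261. Both genes lay below free RNA in all 5 libraries. Cxcl1 had 1111 and 468 CPM in young, 1117 and 2871 CPM in middle-aged and 2156 CPM in aged smooth muscle and did not pass (log2 1.26 ± 0.50 aged against young, edgeR adjusted p = 0.518). Aged against middle-aged, 0 of 10 ligands passed, beside 0.0380% of genes, with 4 ligands and 3.99% of genes at an unadjusted p under 0.05 and 0 ligands by DESeq2.

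Lymphocytes and monocytes gave no ligand past the threshold. In T and NK lymphocytes 0 of 8 ligands were called by edgeR in each contrast, with 0% of 4327 genes called in each. At an unadjusted p under 0.05 there were 3 in aged against young, 3 in middle-aged against young and 0 in aged against middle-aged, beside 6.45%, 9.15% and 2.08% of all genes. Ccl5 ran there from 1386 CPM in young female to 7243 CPM in labelled middle-aged male, with aged male at 2522 CPM and aged female at 4208 CPM between them. Different subclusters held the cells: 335 of 492 in young female were Lef1 Dapl1 T cells, and 108 of 224 in labelled middle-aged male were Gzma Cd8b1 lymphocytes. In B cells 0 of 2 ligands were called in each contrast, with 0% of 2283 genes, and 1, 0 and 0 had an unadjusted p under 0.05, beside 1.49%, 2.76% and 1.84% of all genes. In monocytes 0 of 13 ligands were called, beside 0.0767% of 2606 genes in aged against young and 0% in the other contrasts, and 5, 3 and 0 reached an unadjusted p under 0.05, beside 7.33%, 7.64% and 6.14% of all genes. The DESeq2 count was 0 ligands in each of these fits. Monocyte Cxcl2 had 2436 and 1202 CPM in the young male and young female libraries, 12864 CPM in labelled middle-aged male and 12062 and 1148 CPM in aged male and female, so the aged libraries lay at both ends.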

How the data were processed

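The deposited values are raw UMI counts for each gene in each barcode. The submitters' processing notes name Cell Ranger 3.0.2, Seurat and the mm10 build as the authors' tools. A barcode needed 500 genes or more and no more than 10% mitochondrial UMIs (24488 passed), and scrublet at 6% expected doublets marked and removed 590. Cells were clustered with scanpy 1.11.5 on 30 components of 2000 variable genes, without the ligand genes and without batch correction, at Leiden resolution 1, and some clusters again at 0.5. Clusters were named from 199 markers in 21 lists. Each class of each library gave 1 sum of counts. Sums of at least 20 cells, in the 9 classes with 5 or more such libraries, were tested with edgeR 4.0.16 (TMM, filterByExpr, quasi-likelihood test, age as the only term) under R 4.3.3, and with DESeq2 1.42.0 as an alternative. A gene was called below 0.05 after Benjamini-Hochberg adjustment over all genes of a fit. Residual degrees of freedom were 2 or 3. With 2 libraries an age, an exact permutation test cannot pass that threshold. Other alternatives added sex, dropped the filter, left out each library or the top cell of a gene, gated each barcode by markers, kept doublets, needed 1000 genes, took off 10% free RNA and thinned the sums to 1 depth. The fits were tested on simulated data.

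Ligands with a mean of at least 10 CPM in a class are named with their highest class, and per-library values are given for those that pass a test or lead their group. Other genes come from lists, at most 3 per list and contrast by smallest p. Members, lists and markers were chosen with earlier results of these data known. The top-cell alternative was chosen after seeing the data. Gene positions are GENCODE M21 (GRCm38). UMIs are not divided by gene length, so levels are compared within a gene. Poisson intervals (95%) and the limit of 3 counts for a value of 0 cover counting error only. The authors' own cell annotation was not used here.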

Additional observations from a re-analysis of the deposited data

Results flagged for a closer look

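In 4 cases the aged and young libraries differed by at least 2-fold in opposite directions in the labelled sexes, with 1 library per sex and age. The differences were not tested. Of 53 ligand and class pairs with at least 10 UMIs in each of the 4 libraries, 30 had opposite signs. No share over all genes was computed beside these counts, so they cannot be read as a result about the ligands. Fibroblast Ccl2 went from 497 to 1809 CPM in male and from 910 to 379 CPM in female libraries, a gap of 3.13 between the log2 ratios. Macrophage Ccl5 went from 5.13 to 26.7 CPM in male and from 79.3 to 10.6 CPM in female libraries, a gap of 5.29. All 4 values lay below the free RNA of their library, at 46.1, 60.9, 135 and 42.5 CPM in the same order. The lowest rests on 12 UMIs. In T and NK lymphocytes Xcl1 went from 279 to 53.1 CPM in male and from 119 to 299 CPM in female libraries (gap -3.72), and Ccl5 from 6050 to 2522 CPM and from 1386 to 4208 CPM (gap -2.86). The make-up of that class differed: NK cells were 40 of 148 cells in young male, 26 of 492 in young female, 23 of 205 in aged male and 11 of 141 in aged female, and Gzma Cd8b1 lymphocytes 0, 13, 46 and 61.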

How the results depend on the processing

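Calls over the 3 age contrasts were 3 in dendritic cells, 5 in lymphatic endothelium, 2 in smooth muscle and 0 in the other 6 classes. With DESeq2 they were 0 in dendritic cells, 1 in lymphatic endothelium, 7 in macrophages and 0 in smooth muscle. Without a filter on low counts they were 6 in T and NK lymphocytes, 8 in blood endothelium, 7 in dendritic cells, 12 in fibroblasts, 9 in lymphatic endothelium, 18 in macrophages and 7 in monocytes. With labelled sex as a term they were 1 in T and NK lymphocytes, 5 in dendritic cells, 2 in lymphatic endothelium and 3 in monocytes. With the middle-aged sex labels exchanged they were 1 in T and NK lymphocytes, 5 in macrophages, 11 in monocytes and 5 in smooth muscle. With at least 1000 genes per barcode they were 10 in T and NK lymphocytes and 1 in blood endothelium. With free RNA subtracted they were 0 in dendritic cells, 8 in lymphatic endothelium, 1 in macrophages and 5 in smooth muscle. Thinning gave 2 in lymphatic endothelium, and the marker gate gave 2 in monocytes and 0 in smooth muscle. The cause was not tested. Shares of all genes called are given above for the main fits and DESeq2 only. Counts of the other settings, leave-out fits included, have no such share beside them and cannot be read as a result about the ligands. Leaving out 1 library in turn gave 0 to 2 calls in B cells, 0 to 4 in T and NK lymphocytes, 0 to 6 in blood endothelium, 0 to 7 in dendritic cells, 0 to 0 in fibroblasts, 0 to 9 in lymphatic endothelium, 0 to 7 in macrophages, 0 to 15 in monocytes and 0 to 7 in smooth muscle, where a lone library is assumed to vary like the other ages.

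Of the 10 calls, 1 remained with DESeq2, 7 with labelled sex, 9 with the exchanged labels, 9 with doublets kept, 5 after thinning and 10 without the filter. Some settings gave no result for part of the 10. With the marker gate 4 had a result and 2 remained, and with at least 1000 genes 3 had a result and 2 remained. With free RNA subtracted 9 had a result and 6 remained. With the marker gate lymphatic endothelium reached 20 cells in no library, so its calls could not be checked there. In lymphatic endothelium Ccl21a aged against young turned to 0.62 with labelled sex, 3.86 with exchanged labels and 6.89 without the young female library, and middle-aged against young to 3.41 without it. Leaving out 1 library gave it -4.61 to 6.89 and -10.59 to 3.41 in these contrasts. The highest class held for 33 of 33 ligands with doublets kept and with free RNA subtracted, 26 with the marker gate and 20 with at least 1000 genes, where neutrophils, NK, mast and migratory dendritic cells no longer reached 20 cells. No paired analysis was possible because the labels carry no replicate numbers to pair by. The fits with sex as a term, given above, block on labelled sex instead. Counts of 100 UMIs or fewer limit the dendritic, smooth muscle and young lymphatic endothelial values.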
